A study of Homo sapiens with 6 samples.

Results

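The RNA-seq libraries of HT-29 cells were searched for 10 long noncoding genes that carry small nucleolar RNAs (snoRNAs) in their introns: SNHG1, SNHG5, SNHG6, SNHG7, SNHG8, SNHG12, SNHG15, SNHG16, GAS5 and ZFAS1. Each was found by its Entrez gene identifier among the 27434 rows of the gene tables, and all 10 passed the filter on low counts that left 13034 genes for testing. The row of SNHG7 also contains SNORA17A and SNORA17B, so its values are those of the 3 genes together. HT-29 is a human colorectal adenocarcinoma line. Its cells were transfected with siNT, a pool of nontargeting siRNAs, with siHOXA-AS3, a pool against the lncRNA HOXA-AS3, or with siHOXB-AS3, a pool against the lncRNA HOXB-AS3, and were harvested after 48 hours, with 2 libraries per group. The labels give 10 nM of siRNA for every group, while the study's methods give a higher dose. All 3 groups thus received siRNA and transfection reagent, no untransfected cells were analysed, and a single cell line was used. The genes were proposed with their values in these libraries known, so their levels and fold changes are given as descriptions.

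A snoRNA host gene is transcribed by RNA polymerase II and spliced, and the snoRNAs are then trimmed out of the excised introns. Box C/D snoRNAs guide 2′-O-methylation and box H/ACA snoRNAs guide pseudouridylation, mostly of ribosomal RNA. The spliced exons of many such hosts hold short open reading frames that end early, so the RNA is translated briefly and then destroyed by nonsense-mediated decay (NMD). Several hosts, GAS5 being the classic case, are 5′ terminal oligopyrimidine (TOP) genes, whose transcripts start with a C followed by a run of pyrimidines, as do the mRNAs of ribosomal proteins. In colorectal cancer cells the spliced RNAs of GAS5, ZFAS1 and several SNHG genes have been studied for roles in growth and survival.

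The 5′ ends are shown because they are the part of these genes that the TOP class is defined by. In RefSeq windows of 30 bases, from 10 bases before the annotated start to 20 bases from it on, the letters CTTT (in capitals) were found on the transcribed strand in 5 of the 8 host genes with a window printed here (62.5%) and in 4377 of all 35116 windows of the same length (12.5%). On the other strand, CTTT was found in 0 of the 8 and in 9.64% of all windows. The motif was chosen after these sequences were seen, and a match is a description of the letters only. The windows, on build GRCh38.p14, are as follows.
SNHG5, chr6:85678714-85678743, minus strand: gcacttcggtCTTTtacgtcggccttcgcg
SNHG8, chr4:118278752-118278781, plus strand: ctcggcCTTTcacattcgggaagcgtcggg
SNHG12, chr1:28581854-28581883, minus strand: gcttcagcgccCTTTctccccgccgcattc
SNHG16, chr17:76557754-76557783, plus strand: gggcggtctcgcgttCTTTtcgaggtcggc
ZFAS1, chr20:49278632-49278661, plus strand: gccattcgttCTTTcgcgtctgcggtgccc
SNHG1, chr11:62855866-62855895, minus strand: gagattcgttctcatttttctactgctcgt
SNHG7, chr9:136728165-136728194, minus strand: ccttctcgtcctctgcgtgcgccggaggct
GAS5, chr1:173869026-173869055, minus strand: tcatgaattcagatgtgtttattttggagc

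The RefSeq start of GAS5 lies upstream of other annotated starts of the gene, so the first bases of the transcripts in GENCODE v29 (GRCh38) were read as well. Of the 10 hosts, 6 (60%) had at least 1 transcript that begins with CTTT: SNHG5, SNHG6, SNHG8, SNHG16, GAS5 and ZFAS1. Among the tested genes with a GENCODE entry, 639 of 12087 (5.29%) had one. The share was 61.5% of 13 known TOP mRNAs that host no snoRNA in the lists used here, 38.2% of 34 coding snoRNA hosts and 17.6% of 17 other noncoding hosts. Genes with many annotated transcripts have more chances of a match, and GAS5 had 29 and SNHG5 had 23. GAS5 and SNHG16 shared their first 11 bases, shown here in the first 24 bases of a transcript of each.
GAS5, chr1:173867966-173867989, minus strand: CTTTtcgaggtaggagtcgactcc
SNHG16, chr17:76557769-76557792, plus strand: CTTTtcgaggtcggccgcgtggct

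The 6 libraries held between 15998518 and 26263938 expected counts. The knockdowns were checked first. HOXB-AS3 stood at 27.04 and 29.28 FPKM (fragments per kilobase of transcript, scaled to library size) in siNT, at 25.59 and 27.77 in siHOXA-AS3, and at 6.05 and 7.96 in siHOXB-AS3, a log2 fold change of -1.96 ± 0.248 (standard error, SE, as for all fold changes) against siNT and of -1.88 ± 0.248 against siHOXA-AS3. HOXA-AS3 was scarce, with 38 and 18 counts in siNT, 12 and 12 in siHOXA-AS3 and 30 and 22 in siHOXB-AS3, and its log2 fold change in siHOXA-AS3 was -1.09 ± 0.403. Both targets were therefore lowest in the libraries labelled for them. Of 9 markers of colon epithelium, 8 were well detected and CDX2 was under 1 FPKM in every library. The summed FPKM of the 9 ran from 3884 to 5831 in the siHOXA-AS3 libraries, from 4578 to 4932 in siNT and from 4272 to 4319 in siHOXB-AS3. Of 9 markers of immune, stromal, endothelial and muscle cells, 8 were under 1 FPKM in every library, and COL1A2 and DES were listed at 0 in all 6. CD68 made up most of their summed FPKM, which ran from 10.5 to 12.3 in siNT and siHOXB-AS3 and from 11.5 to 16.3 in siHOXA-AS3.

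The siHOXA-AS3 libraries differed from each other more than the replicates of the other groups did. Over the 13034 genes the SD of the log2 difference between replicates was 0.726 in siHOXA-AS3, 0.425 in siNT and 0.371 in siHOXB-AS3, and 13.4% of genes were at least 2-fold apart between the siHOXA-AS3 libraries. Across genes, which are not independent replicates, that difference went with GC content in siHOXA-AS3 (r = 0.761 over 12622 genes). In siNT it ran the other way (r = -0.422), and in siHOXB-AS3 r was 0.153. Among the host genes, AU-rich SNHG6 (41.6% GC), GAS5 (43.6%) and SNHG5 (44.6%) were lower in siHOXA-AS3 replicate 1 than in replicate 2, by log2 differences of -0.65, -0.57 and -0.99. GC-rich SNHG15 (54.3%) was higher in replicate 1, by 0.72. The other 6 hosts did not line up by GC content: the gap was 0.08 for SNHG7 (55.7%), 0.24 for SNHG12 (51.5%), -0.24 for ZFAS1 (51.2%), -0.17 for SNHG16 (46.8%), 0.16 for SNHG8 (44.8%) and -0.16 for SNHG1 (44.5%). These gaps are in log2 CPM with a prior count of 2, and the largest gap in siHOXB-AS3 was 0.21. Values of the host genes in siHOXA-AS3 are therefore read per library below. Nothing in the labels says that the libraries of a group came from separate cultures, so the errors given measure spread between libraries, which may be technical. Each SE pools all 6 libraries and borrows from other genes, so it is not the spread of the 2 groups compared.

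**Figure D1:**
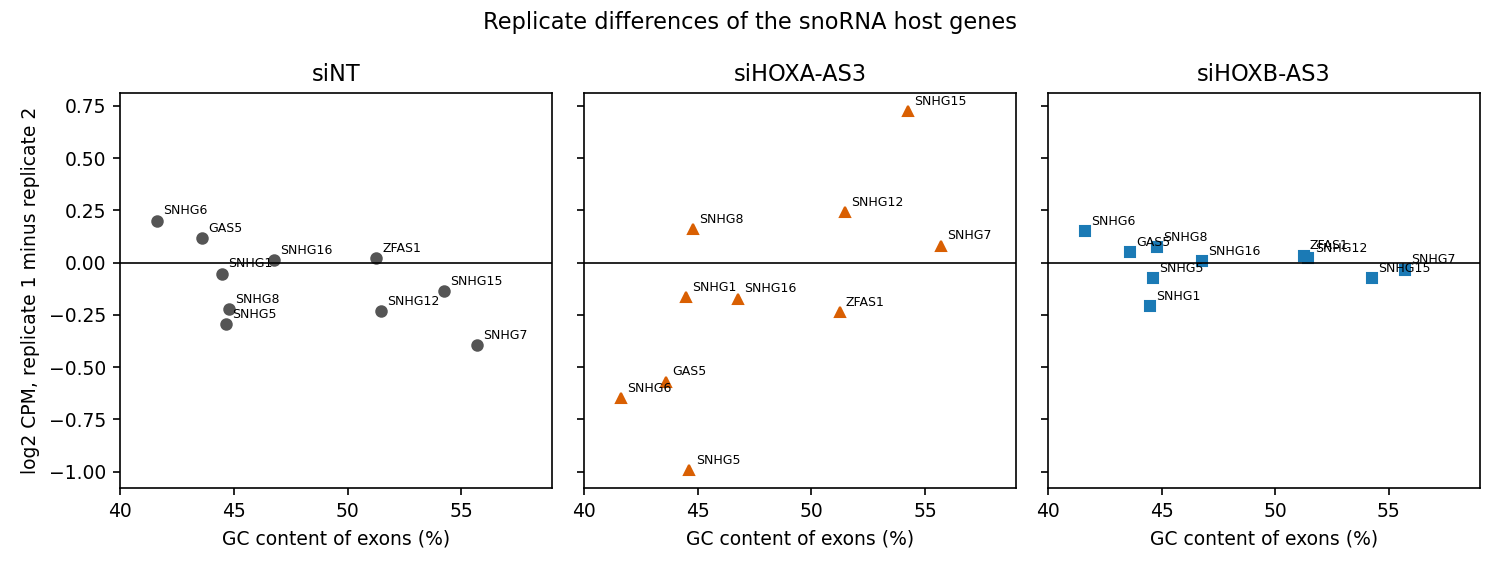
Log2 CPM of replicate 1 minus replicate 2 (vertical axis) against the GC content of the exons in percent (horizontal axis) for the 10 snoRNA host genes in siNT, siHOXA-AS3 and siHOXB-AS3. In siHOXA-AS3 the points run from -0.99 for SNHG5 to 0.72 for SNHG15, while in siHOXB-AS3 they stay within 0.21 of 0.

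In siNT the hosts spanned a wide range of levels, from ZFAS1 at the top to SNHG12 at the bottom. By mean FPKM the order was ZFAS1 (707 ± 10.2, SD, n = 2), SNHG1 (405 ± 7.66), GAS5 (223 ± 15.3), SNHG8 (186 ± 20.7), SNHG16 (167 ± 1.88), SNHG6 (122 ± 13.6), SNHG15 (58.9 ± 3.48), SNHG7 (29.9 ± 2.81), SNHG5 (29.3 ± 3.87) and SNHG12 (8.13 ± 0.863). Neighbours in this order did not overlap between their siNT libraries, apart from SNHG7 and SNHG5. Over all 6 libraries, 5 of the 9 neighbouring pairs overlapped. Ranked by TPM the order was the same. Together the 10 genes made up 0.283% and 0.273% of all FPKM in siNT, 0.210% and 0.275% in siHOXA-AS3, and 0.339% and 0.342% in siHOXB-AS3. Since these are bulk libraries, fewer cells that express a gene and less RNA per cell cannot be told apart. Their RNAs are short: 9 of the 10 were at or below percentile 9.74 of length among the genes tested, with deposited lengths between 472 nt (SNHG6) and 1118 nt (SNHG1), and SNHG16 was 2510 nt long.

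**Figure D2:**
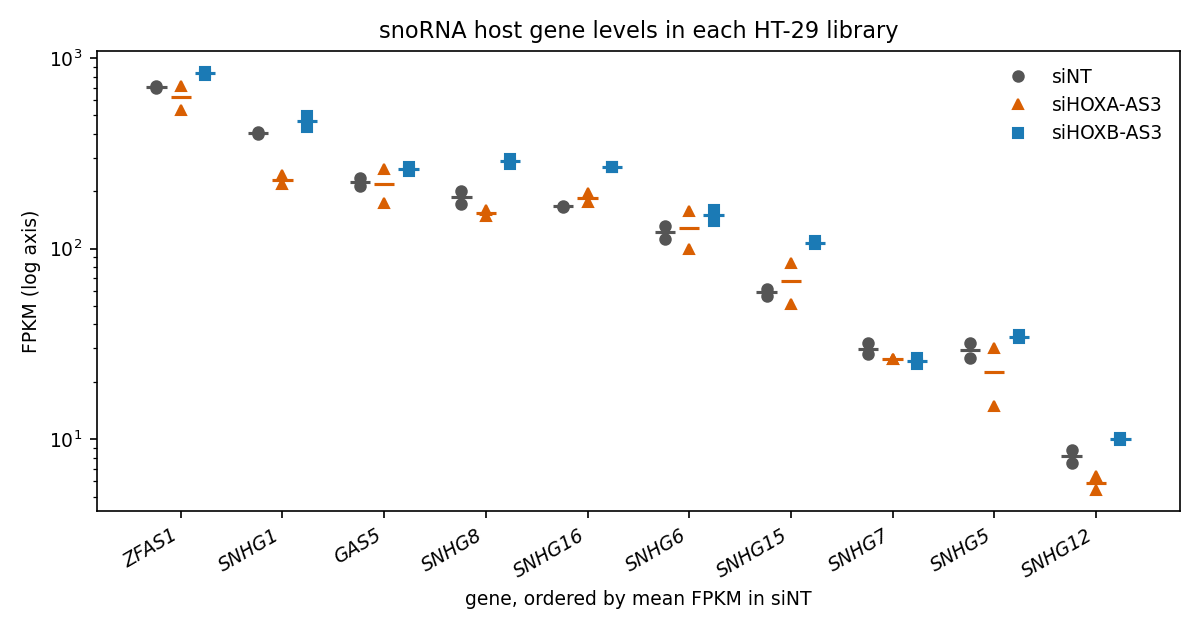
FPKM on a log axis (vertical) for each snoRNA host gene (horizontal, ordered by mean siNT level), with 1 point a library and a bar at the mean of the 2 libraries of siNT, siHOXA-AS3 and siHOXB-AS3. The siHOXB-AS3 points are the highest for ZFAS1, SNHG1, SNHG8, SNHG16, SNHG15, SNHG5 and SNHG12, siHOXA-AS3 replicate 2 lies among them for GAS5 and SNHG6, and for SNHG7 all 6 points lie between 24.7 and 31.9.

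The box C/D hosts come first. SNHG1, the host of SNORD22 and of SNORD25 to SNORD31, lies at chr11:62851988-62855914 on the minus strand (GENCODE v29, GRCh38, as for all positions of whole genes below). It had 399 and 410 FPKM in siNT, 217 and 243 in siHOXA-AS3, and 434 and 498 in siHOXB-AS3. The 3 groups did not overlap, with siHOXA-AS3 lowest and siHOXB-AS3 highest. Its log2 fold change was -0.81 ± 0.153 in siHOXA-AS3 and 0.25 ± 0.152 in siHOXB-AS3 against siNT. Between the knockdowns the difference was 1.07 ± 0.154, or 2.09-fold higher in siHOXB-AS3, and SNHG1 was the 1 host gene that passed the threshold there (edgeR adjusted p = 0.0372). The call was lost without any 1 of the siNT or siHOXB-AS3 libraries, where at most 0.119% of all genes were called, with a replicate block (0.0767% of genes) and with the compared groups alone in the fit (0.0156%). It was kept without either siHOXA-AS3 library (37.8% and 36% of genes), while the difference stayed between 0.95 and 1.17 over 14 alternative analyses.

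SNHG16, the host of SNORD1A, SNORD1B and SNORD1C at chr17:76557766-76565348, had the tightest replicates of the set in siNT and in siHOXB-AS3, though not in siHOXA-AS3. Its FPKM was 168 and 165 in siNT, 175 and 196 in siHOXA-AS3, and 269 and 267 in siHOXB-AS3. All siHOXB-AS3 values lay above all others, and the siHOXA-AS3 values lay above siNT by less than the gap to siHOXB-AS3. The log2 fold changes were 0.16 ± 0.140 and 0.73 ± 0.141, the latter a 1.66-fold difference.

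ZFAS1, first described as an antisense RNA at the 5′ end of ZNFX1 and the host of SNORD12, SNORD12B and SNORD12C, lies at chr20:49278178-49295738. It had 714 and 699 FPKM in siNT, 534 and 710 in siHOXA-AS3, and 848 and 818 in siHOXB-AS3. The siHOXB-AS3 libraries were above the rest, and in FPKM siHOXA-AS3 replicate 2 fell between the siNT values. The log2 fold changes, from counts scaled by TMM, were -0.21 ± 0.147 and 0.31 ± 0.147.

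GAS5, whose RNA accumulates when growth stops and which hosts SNORD44, SNORD47 and SNORD74 to SNORD81, lies at chr1:173863900-173868882. It had 234 and 212 FPKM in siNT, 175 and 261 in siHOXA-AS3, and 269 and 256 in siHOXB-AS3. The siHOXA-AS3 libraries lay on either side of siNT and overlapped siHOXB-AS3 in FPKM, though not in counts scaled by TMM. The log2 fold changes were -0.05 ± 0.215 in siHOXA-AS3 and 0.285 ± 0.215 in siHOXB-AS3.

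SNHG5, the host of SNORD50A and SNORD50B, lies at chr6:85660950-85678748 and was the host with the widest siHOXA-AS3 pair. Its FPKM was 26.5 and 32.0 in siNT, 14.9 and 30.2 in siHOXA-AS3, and 33.9 and 35.0 in siHOXB-AS3. SNHG6, the host of SNORD87 on chromosome 8, had 131 and 112 FPKM in siNT, 99.0 and 157 in siHOXA-AS3, and 159 and 140 in siHOXB-AS3. In both genes the siHOXB-AS3 libraries were above siNT, while siHOXA-AS3 replicate 1 was below siNT and replicate 2 was not. The log2 fold changes in siHOXA-AS3 and siHOXB-AS3 were -0.41 ± 0.343 and 0.29 ± 0.338 for SNHG5, and 0.04 ± 0.250 and 0.35 ± 0.250 for SNHG6.

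Of the hosts of box H/ACA snoRNAs, SNHG8, at chr4:118278709-118279823 with SNORA24, is among the shortest. Its FPKM was 172 and 201 in siNT, 159 and 149 in siHOXA-AS3, and 297 and 279 in siHOXB-AS3. The 3 groups did not overlap, in the same order as for SNHG1. The log2 fold changes were -0.26 ± 0.175 and 0.68 ± 0.175, and 0.94 ± 0.176 between the knockdowns.

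SNHG15, the host of SNORA9 at chr7:44983023-44986961, had the largest fold change of the set against siNT. Its FPKM was 56.5 and 61.4 in siNT, 84.0 and 51.0 in siHOXA-AS3, and 105 and 110 in siHOXB-AS3. The siHOXB-AS3 libraries were above all others, and the siHOXA-AS3 libraries lay on either side of siNT. The log2 fold change was 0.92 ± 0.259 in siHOXB-AS3, or 1.89-fold, and 0.19 ± 0.258 in siHOXA-AS3.

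SNHG12, the host of SNORA16A, SNORA44, SNORA61 and the C/D snoRNA SNORD99, lies at chr1:28578538-28583132 and was the least abundant. Its FPKM was 7.52 and 8.74 in siNT, 6.38 and 5.39 in siHOXA-AS3, and 10.2 and 9.90 in siHOXB-AS3. These values rest on 56 to 156 counts a library. The groups did not overlap, and the log2 fold changes were -0.47 ± 0.249 and 0.36 ± 0.243.

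SNHG7, counted with its snoRNAs SNORA17A and SNORA17B at chr9:136721366-136728184, was the exception in siHOXB-AS3. Its FPKM was 27.9 and 31.9 in siNT, 26.3 and 26.3 in siHOXA-AS3, and 24.7 and 26.7 in siHOXB-AS3. The log2 fold changes were -0.38 ± 0.210 in siHOXA-AS3 and -0.14 ± 0.209 in siHOXB-AS3, so that SNHG7 was the host with a value below 0 in siHOXB-AS3. Its mean deposited length, which weights its transcripts by abundance, was 857 and 963 nt in siNT, 831 and 792 nt in siHOXA-AS3, and 955 and 901 nt in siHOXB-AS3. For ZFAS1, SNHG8 and SNHG16, the other rows with several transcripts, the mean difference between a knockdown and siNT was under 10 nt, but for ZFAS1 the siHOXA-AS3 libraries stood at 778 and 706 nt, on either side of 747 and 742 nt in siNT.

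**Figure D3:**
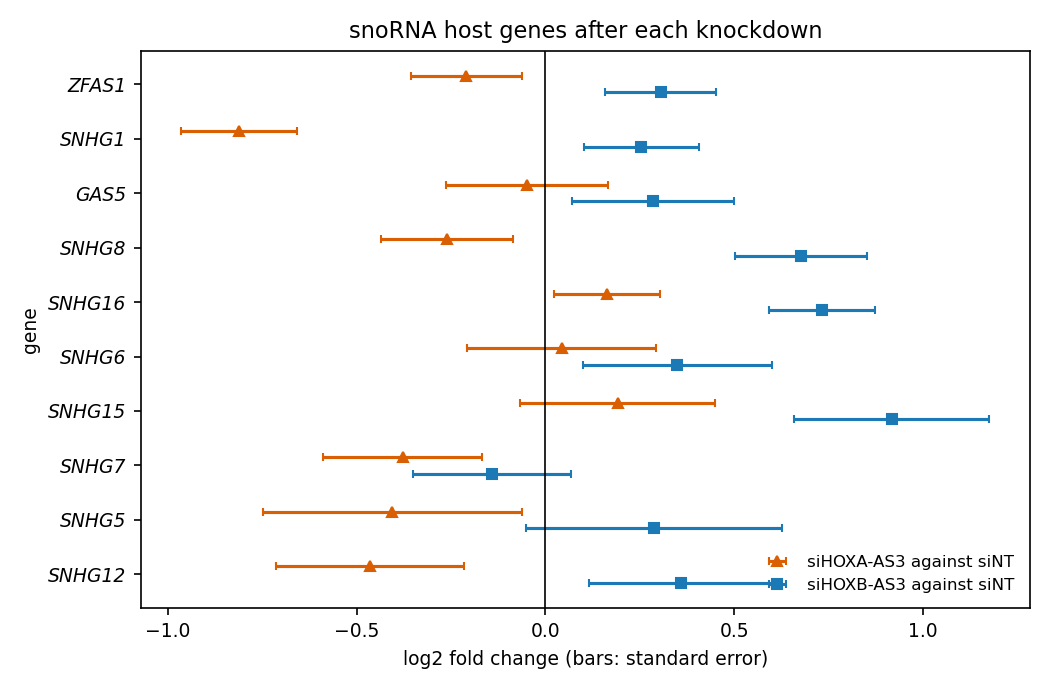
Log2 fold change with its standard error (horizontal axis) of each snoRNA host gene (vertical axis) in siHOXA-AS3 and in siHOXB-AS3, both against the same siNT libraries. In siHOXB-AS3 the values run from -0.14 for SNHG7 to 0.92 for SNHG15, and in siHOXA-AS3 from -0.81 for SNHG1 to 0.19 for SNHG15.

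Taken by comparison, the median log2 fold change of the 10 hosts was -0.24 in siHOXA-AS3 and 0.33 in siHOXB-AS3 against siNT, beside 0.0089 and -0.0056 over all genes tested. Both comparisons use the same siNT libraries, and overlap is counted here in TMM-scaled counts, in which GAS5, SNHG7 and ZFAS1 differ from their FPKM. In siHOXA-AS3, 3 hosts had a value above 0, beside 51.3% of all genes, and 7 had one below 0, with 5 not overlapping siNT on the low side (SNHG1, SNHG7, SNHG8, SNHG12 and ZFAS1) and SNHG16 on the high side. Over all genes tested 16.1% did not overlap on the low side and 12.5% on the high side. In siHOXB-AS3, 9 hosts had a value above 0, beside 49.3% of all genes, and all 9 lay above siNT without overlap, in a comparison where 30.9% of all genes did so. Between the knockdowns all 10 had a value above 0, beside 48.9% of all genes, though that of SNHG7 ran from -0.03 to 0.28 over 14 alternative analyses. The mean FPKM of SNHG7 was 25.7 in siHOXB-AS3 and 26.3 in siHOXA-AS3. By scaled counts 9 hosts were higher in siHOXB-AS3 without overlap, all but SNHG6, beside 22.8% of all genes. The median difference was 0.63 beside -0.011. Because the hosts were proposed with these comparisons known, nothing is read from these counts. By library, the median of the hosts relative to the siNT mean was -0.33 and -0.16 log2 units in siHOXA-AS3 replicates 1 and 2, and 0.34 and 0.33 in siHOXB-AS3.

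In edgeR's quasi-likelihood test over all genes, with Benjamini-Hochberg adjustment at 0.05, 0 hosts were called in siHOXA-AS3 against siNT, where 0% of all genes were (0 of 13034, with 803 or 6.16% at an unadjusted p under 0.05), and 1 host, SNHG1, had an unadjusted p under 0.05. DESeq2 called 0 hosts there and 0.391% of genes. In siHOXB-AS3 against siNT, 0 hosts were called by edgeR beside 0.0614% of genes (0.0307% as higher and 0.0307% as lower), and 3 had an unadjusted p under 0.05, beside 12.2% of genes. DESeq2 called SNHG15 and SNHG16 beside 2.71% of genes. Between the knockdowns edgeR called SNHG1 and 1.57% of genes (0.629% as higher), and DESeq2 called SNHG1 and SNHG8 beside 6.14% of genes. These counts moved when libraries were left out. Without any 1 siNT or siHOXB-AS3 library, 0 hosts were called in any of the 3 comparisons. Without siHOXA-AS3 replicate 1 or replicate 2, 7 hosts were called in siHOXB-AS3 against siNT (SNHG1, SNHG6, SNHG8, SNHG15, SNHG16, GAS5 and ZFAS1), beside 22.7% and 22.6% of all genes, and with siNT and siHOXB-AS3 alone in the fit 6 were, beside 23.3%. In siHOXA-AS3 against siNT, 1 host was called without its replicate 1 and 5 without its replicate 2, beside 30.3% and 17.9%. With the GC trend of each library removed, SNHG1 was called in siHOXA-AS3 against siNT beside 3.94% of genes, SNHG15 and SNHG16 in siHOXB-AS3 against siNT beside 13.2%, and 8 hosts between the knockdowns beside 25.2%. Without a filter on low counts the shares of genes called were 0.136%, 1.5% and 3.99%, and with the siNT numbers of a replicate block crossed 0.107%, 1.73% and 5.82%. Without siNT replicate 2, 0.00745% of genes and 0 hosts were called in each comparison with siNT. The medians moved less: without siHOXA-AS3 replicate 1 or 2 that of siHOXA-AS3 was -0.16 or -0.33, and with the GC trend removed the medians were -0.20 in siHOXA-AS3 and 0.31 in siHOXB-AS3.

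The single fold changes in siHOXB-AS3 kept their sign under each of 14 alternative analyses for the 9 hosts other than SNHG7, which ran from -0.33 to 0.07 and was above 0 without siNT replicate 2. In siHOXA-AS3, SNHG1 (from -0.89 to -0.73), SNHG7, SNHG8, SNHG12 and ZFAS1 stayed below 0 and SNHG16 above 0. GAS5, SNHG6, SNHG5 and SNHG15 crossed 0: without siHOXA-AS3 replicate 1 they were at 0.21, 0.33, 0.02 and -0.22, and without replicate 2 at -0.36, -0.31, -0.97 and 0.52.

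The snoRNAs themselves could not be followed in these libraries, which were made from polyadenylated RNA. Of 32 rows for snoRNAs of these hosts, 26 were at 0 in every library, 6 had a count in some library and 0 passed the filter on low counts. The summed counts of the 32 rows were 12 and 9 in siNT, 4 and 30 in siHOXA-AS3, and 6 and 9 in siHOXB-AS3. Reads of an unspliced or retained intron and of the snoRNA cannot be told apart there.

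Other noncoding snoRNA hosts gave values for genes that were not part of the set. Of 20 listed, 18 had a row and 15 were tested. Some of these rows join the host with another gene, so that the value is that of both: SNHG3 with the coding gene RCC1, SNHG20 with SEC14L1, SNHG4 with MATR3, SNHG10 with SCARNA13 and SNHG29 with SNORD49B. None of the 15 was called by edgeR in any comparison (adjusted p over all genes), with 3, 3 and 6 at an unadjusted p under 0.05 in siHOXA-AS3 against siNT, siHOXB-AS3 against siNT and between the knockdowns, beside 6.16%, 12.2% and 18.4% of all genes. In siHOXA-AS3 12 of the 15 were below 0, with a median of -0.29 and 9 below siNT without overlap, beside 16.1% of all genes. The lowest was SNHG25 at -1.14 ± 0.366, from 9.29 and 11.4 CPM (counts scaled to library size with TMM factors) in siNT to 6.21 and 3.10. The joined row of RCC1 and SNHG3, the latter a host of SNORA73A and SNORA73B, stood at -0.58 ± 0.156, with 151 and 164 CPM in siNT, 112 and 98.4 in siHOXA-AS3, and 180 and 180 in siHOXB-AS3. The row of SNHG20 and SEC14L1 was at -0.65 ± 0.181, SNHG10 at -0.56 ± 0.379, SNHG30 at -0.50 ± 0.249 and SNHG9 at -0.43 ± 0.320. SNHG32 was at -0.34 ± 0.179, SNHG19 at -0.29 ± 0.263, SNHG29 at -0.25 ± 0.166 and EPB41L4A-AS1 at -0.19 ± 0.191, while DANCR and SNHG4 were at -0.08 ± 0.195 and -0.02 ± 0.235. SNHG21, SNHG11 and SNHG17 were above 0, from 0.14 to 0.23.

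In siHOXB-AS3, 12 of the 15 were above 0, with a median of 0.16, and 6 lay above siNT without overlap, beside 30.9% of all genes. The highest was SNHG21 at 0.76 ± 0.303, with 2.51 and 1.67 CPM in siNT and 3.70 and 3.46 in siHOXB-AS3. SNHG17 was at 0.59 ± 0.3003, EPB41L4A-AS1 at 0.51 ± 0.191, SNHG30 at 0.41 ± 0.243, DANCR at 0.29 ± 0.195 and SNHG3 at 0.19 ± 0.155. The row of SNHG20 and SEC14L1 was the lowest at -0.49 ± 0.180, with 67.4 and 73.9 CPM in siNT against 47.3 and 53.2, and it was below siNT in both knockdowns. SNHG4, SNHG9, SNHG10, SNHG11, SNHG19, SNHG25, SNHG29 and SNHG32 lay between -0.02 and 0.17 and overlapped siNT. Without siNT replicate 1 or 2 the median was 0.07 or 0.30.

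For coding snoRNA hosts and other TOP mRNAs the medians had the same signs as for the 10 hosts and were nearer to 0, while single genes such as NAP1L4 (-0.85 ± 0.169 in siHOXA-AS3, beside -0.81 for SNHG1) were as far from 0 as the hosts. Of 34 coding hosts, most of them genes for ribosomal proteins and translation factors, 29 were below 0 in siHOXA-AS3 (median -0.10) and 29 were above 0 in siHOXB-AS3 (median 0.18). In siHOXA-AS3, 7 of them lay below siNT without overlap and 1 above it, beside 16.1% and 12.5% of all genes. In siHOXB-AS3, 25 lay above siNT without overlap and 1 below it, beside 30.9% of all genes on each side. NOP56, a core protein of box C/D snoRNPs that itself hosts snoRNAs and whose row is joined with SNORD86, was the highest in siHOXB-AS3 at 0.74 ± 0.161, with 97.8 and 105 CPM in siNT, 115 and 110 in siHOXA-AS3, and 158 and 182 in siHOXB-AS3. The lowest was RPL27A at -0.17 ± 0.239. Between the knockdowns edgeR called 2 of the 34, both higher in siHOXB-AS3, beside 0.629% of all genes. RPS12, a protein of the small ribosomal subunit, had 2103 and 2135 CPM in siNT, 1465 and 1280 in siHOXA-AS3, and 2695 and 2591 in siHOXB-AS3 (difference 0.94 ± 0.139, edgeR adjusted p = 0.0376). NAP1L4, a histone chaperone, had 74.9 and 70.0, 38.3 and 42.0, and 81.9 and 81.9 CPM (difference 1.03 ± 0.170, edgeR adjusted p = 0.0434). As for SNHG1, the siHOXA-AS3 libraries of both genes were the lowest. With siHOXA-AS3 and siHOXB-AS3 alone in the fit, edgeR called 2 of 12813 genes tested. Whether RPS12 or NAP1L4 was among them is not given here.

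Of 12 other TOP mRNAs with a row, 11 were below 0 in siHOXA-AS3 (median -0.10) and 12 were above 0 in siHOXB-AS3 (median 0.18), from EEF1G at 0.06 ± 0.159 to EEF1D at 0.37 ± 0.277, both subunits of the elongation factor that reloads EEF1A. Without overlap, 1 of the 12 lay below siNT and 0 above it in siHOXA-AS3, beside 16.1% and 12.5% of all genes. In siHOXB-AS3, 9 lay above siNT and 0 below it without overlap, beside 30.9% of all genes on each side. None of the 12 was called by edgeR or had an unadjusted p under 0.05 in any comparison.

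**Figure D4:**
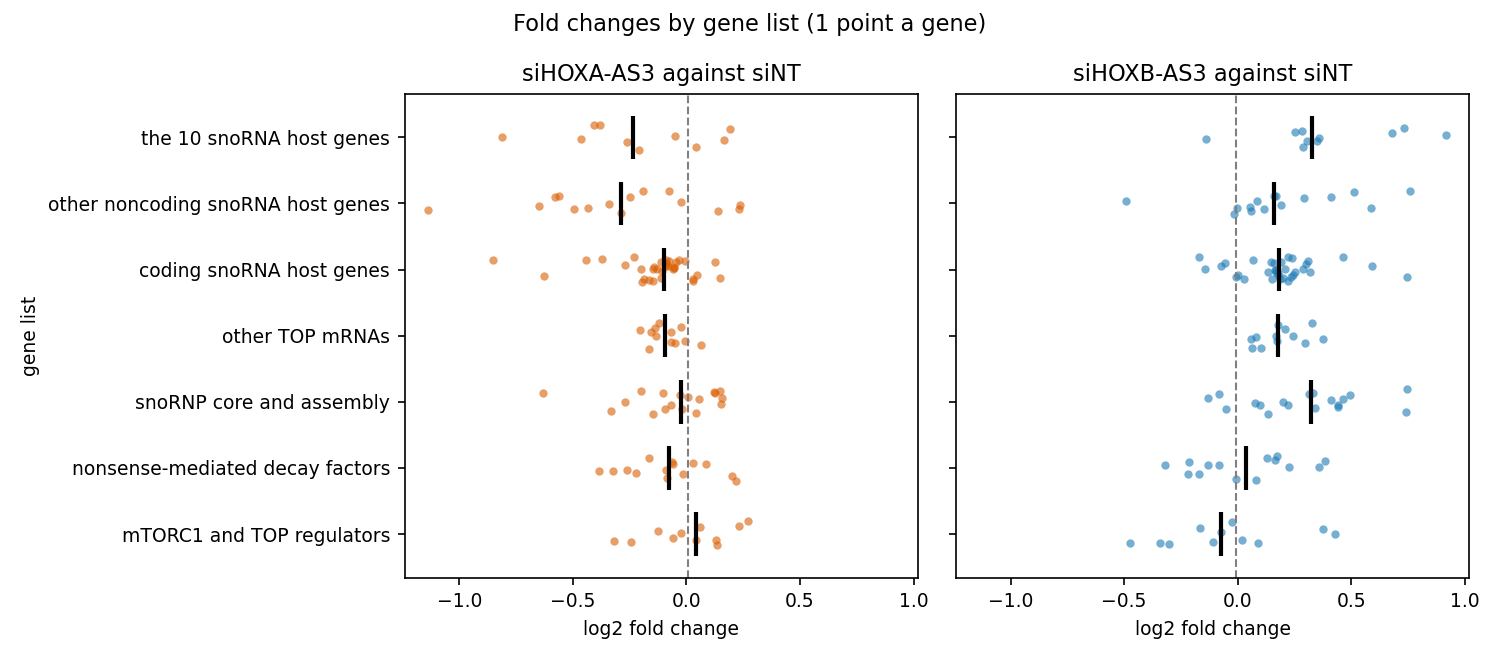
Log2 fold change (horizontal axis) of each tested gene of 7 lists (vertical axis) in siHOXA-AS3 and in siHOXB-AS3 against the same siNT libraries, with 1 point a gene, a black bar at the median of the list and a dashed line at the median of all 13034 genes. The medians of the 10 snoRNA host genes are -0.24 and 0.33, and those of the regulators of mTORC1 are 0.04 and -0.07.

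The proteins that act on the hosts or on their snoRNAs were also listed. Of 18 proteins of snoRNPs and of their assembly, 15 were above 0 in siHOXB-AS3 (median 0.32), from NOP10 at -0.13 ± 0.162 to NOP56, and 10 were below 0 in siHOXA-AS3 (median -0.02). None was called by edgeR in any comparison, with 1, 3 and 6 at an unadjusted p under 0.05, where 6.16%, 12.2% and 18.4% of all genes were, shares that also stand beside the counts of the next lists. Of 14 factors of NMD, 7 were above 0 in siHOXB-AS3 (median 0.04), from UPF3B at -0.32 ± 0.233 to the exon junction helicase EIF4A3 at 0.39 ± 0.173, and 10 were below 0 in siHOXA-AS3 (median -0.07). None of these was called by edgeR either, with 0, 0 and 2 at an unadjusted p under 0.05. Of 11 members and regulators of mTORC1, the kinase complex that sets the translation of TOP mRNAs, 4 were above 0 in siHOXB-AS3 (median -0.07). TSC1 and TSC2, the partners of the complex that restrains mTORC1, were at the ends of that range, at 0.43 ± 0.175 and -0.47 ± 0.275. None of the 11 was called by edgeR, with 0, 1 and 3 at an unadjusted p under 0.05.

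Of the markers of colon epithelium, EPCAM, an adhesion protein of epithelial cells, was lower in siHOXB-AS3, with 453 and 440 CPM in siNT, 427 and 470 in siHOXA-AS3, and 258 and 251 in siHOXB-AS3. Against siHOXA-AS3 it fell by 0.82 ± 0.140 on the log2 scale (edgeR adjusted p = 0.0471). EPCAM was the 1 marker of the 9 that edgeR called there, beside 0.936% of all genes called as lower. With those groups alone in the fit, edgeR called 0.0156% of all genes, and whether EPCAM was among them is not given here. Against siNT its log2 fold change was -0.81 ± 0.140, with an edgeR adjusted p of 0.101. KRT8 was the highest of the 9 in siHOXB-AS3 at 0.20 ± 0.314, 7 of the 9 were below 0 there (median -0.46), and the part of these markers in the host gene values was not tested.

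The neighbours and overlaps of the hosts bear on how reads were assigned, since the strand setting of the counting is not given in the sources used here. In GENCODE v29, 3 hosts have a coding gene on the other strand whose annotated start lies within 2000 bp of their own, a search made after the values were seen. SLC3A2, an amino acid transporter chain that starts 188 bp from SNHG1, was at 0.21 ± 0.199 in siHOXA-AS3 and 0.58 ± 0.199 in siHOXB-AS3, beside -0.81 and 0.25 for SNHG1. ZNFX1, beside ZFAS1, was at 0.13 ± 0.179 and 0.15 ± 0.179, and ZBTB37, beside GAS5, at -0.28 ± 0.268 and 0.10 ± 0.263. None of these 3 genes was called by edgeR. In the same annotation, exons of SNHG16 share 1639 bases with AC015802.6 on the other strand and those of SNHG7 share 1094 with FAM69B. Exons of ZFAS1 share 249 bases with ZNFX1 on the other strand, those of SNHG6 share 365 with MCMDC2, and those of GAS5 share 42 with GAS5-AS1. For these hosts, reads from the partner could not be set apart without strand.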

How the data were processed

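Per the labels, RNA of HT-29 cells was read as polyA RNA with the Lexogen SENSE mRNA kit, and the submitters' processing notes name RSEM and build hg19. The labels name an RNeasy extraction and the study's methods another reagent. Not given in the sources used here: aligner, RSEM version, strandedness of counting. The authors deposited, per RefSeq gene row, RSEM expected counts (estimated counts without normalization), TPM and FPKM, the latter scaled by length and library size. Of 27434 rows, 627 join several genes. Rows were named through the Entrez identifiers of a RefSeq gene table.

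Expected counts were rounded, filtered with filterByExpr (minimum count 10), TMM-scaled and fitted in R 4.3.3 by edgeR 4.0.16 (robust quasi-likelihood F-test), with all 6 libraries sharing the spread and Benjamini-Hochberg adjustment over 13034 genes at 0.05. Each SE was derived as the absolute log2 fold change divided by the square root of the quasi-likelihood F statistic. Log2 CPM used a prior count of 2. No pair of libraries was identical (smallest chi-square per degree of freedom 6.77). The step was tested on simulated data. The alternatives were DESeq2 1.42.0, limma 3.58.1 on log2(FPKM + 0.1), RLE factors, no filter, only the groups compared, a replicate block, loess trends (span 0.3) on GC content or length, TPM and leaving out each library. GC content, positions and exon overlaps came from GENCODE v29, start windows from RefSeq.

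The members and lists were chosen with earlier results of these data known. Named genes are the 10 hosts, both targets, the other noncoding hosts, the highest and lowest gene of each other list in siHOXB-AS3, any listed gene called, and the 5 genes most correlated with the hosts. The partners of the hosts and the motif were chosen after values were seen. The expression of EEF1A1 and any start window of SNHG15 and SNHG6 were not analysed here.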

Additional observations from a re-analysis of the deposited data

Results flagged for a closer look

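In SNHG1 the knockdowns differed by the main test, a call that was lost in several alternative analyses. In 3 other hosts the knockdowns lay on opposite sides of siNT in scaled counts. For SNHG1 the log2 difference between siHOXB-AS3 and siHOXA-AS3 was 1.07, tested across all genes with edgeR (adjusted p = 0.0372), as a description since the gene was proposed with this comparison known. Of all genes, 0.629% were called as higher there. The SNHG1 call was lost with a replicate block and with the compared groups alone in the fit. For SNHG8 (0.94), SNHG12 (0.82) and ZFAS1 (0.52) every siHOXA-AS3 library lay below and every siHOXB-AS3 library above both siNT libraries in scaled counts, and for these the difference did not pass the same test (edgeR adjusted p = 0.0549, 0.147 and 0.132). Over all genes tested, 16.1% lay below siNT without overlap in siHOXA-AS3 and 30.9% above it in siHOXB-AS3, each counted alone. The share with both is not given here. In FPKM, siHOXA-AS3 replicate 2 of ZFAS1 (710) lay between the siNT values (714 and 699).

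Of the snoRNA rows left out of the comparisons, 5 had more counts in a knockdown library than in either siNT library, 4 of them with more than 3 counts. More knockdown than siNT libraries were searched, which alone favours them at such low counts, so nothing is read from these rows. SNORA16A had 17 counts and SNORA24 and SNORA9 had 5 each in siHOXA-AS3 replicate 2, and SNORA61 had 5 in siHOXB-AS3 replicate 2, against at most 4 in siNT for any of them. SNORD99 had 0 and 0 counts in siNT, 0 and 2 in siHOXA-AS3, and 2 and 3 in siHOXB-AS3.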

How the results depend on the processing

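Medians of the 10 hosts moved by more than their replicate SD (0.0692) only with the length trend removed or on leaving out libraries. The length trend gave -0.16 in siHOXA-AS3 and 0.26 in siHOXB-AS3 against siNT, and 0.53 between the knockdowns. Leaving out libraries gave -0.33 to -0.16 in siHOXA-AS3 against siNT and 0.45 to 0.66 between the knockdowns. In siHOXB-AS3 against siNT it gave 0.33 to 0.37, within that SD of the main 0.33. For the other noncoding hosts the length trend gave 0.29 between the knockdowns, and leaving out libraries gave -0.39 to -0.17, 0.0713 to 0.303 and 0.415 to 0.63. Counts of calls moved most. Genes called in siHOXA-AS3 against siNT were 0 in the main analysis, 24 without a filter, 513 with the GC trend removed, 1 with the length trend removed, 49 by DESeq2, 1 by limma and 0 to 4031 on leaving out libraries. In siHOXB-AS3 against siNT they were 8, then 265 without a filter, 1720 with the GC trend removed, 2995 with only the groups compared, 331 by DESeq2 and 0 to 3035 on leaving out libraries. Between the knockdowns they were 204, then 706, 3290, 2, 770, 93 by limma and 0 to 5027. Hosts called were 1 with the GC trend removed and 0 to 5 on leaving out libraries for siHOXA-AS3 against siNT. For siHOXB-AS3 against siNT they were 1 without a filter, 2 with the GC trend removed, 6 with only the groups compared, 2 by DESeq2 and 0 to 7 on leaving out libraries. Between the knockdowns, 1 in the main analysis, they were 2, 8, 0, 2 and 0 to 9. The highest counts of these ranges came from fits without a siHOXA-AS3 library, which left that group with 1 sample assumed to vary like the others, and without either siHOXB-AS3 library 0 genes were called between the knockdowns. The cause was not tested.

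The replicate block gave 0 genes in each comparison with siNT, and 10 genes and 0 hosts between the knockdowns. Same-numbered libraries did not deviate together (correlations of -0.347, -0.139 and 0.15). With 2 libraries per group these correlations cannot show whether the numbers pair the samples. With the siNT numbers of the block crossed, an alternative chosen after seeing the data, 14, 225 and 758 genes and 0, 1 and 2 hosts were called. Among single fold changes and ranks, 412 values stayed within 1 standard error or rank and 18 moved beyond it. Depth limits the scarce genes, among them HOXA-AS3 with 12 to 38 counts a library, SNHG10 with 20 to 48, and SNHG12, the scarcest of the 10 hosts, with 56 to 156.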

Other observations

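Over the 6 libraries each host was compared with the mean log2 CPM of the other 9. Pearson's r, a description over 6 libraries that share the siNT controls, was highest for ZFAS1 (0.976), SNHG8 (0.934), SNHG12 (0.874) and SNHG1 (0.847), and lowest for SNHG7 (0.380).

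Of 5424 other genes averaging 10 FPKM or more, the 5 closest to the mean of the hosts over the same 6 libraries were ST13 (r = 0.997), PTRH2 (0.995), RPL31 (0.994), TMEM138 (0.994) and MRPL18 (0.994). Their fold changes varied. ST13, a cochaperone of HSP70, was at -0.09 ± 0.138 in siHOXA-AS3 and 0.15 ± 0.138 in siHOXB-AS3, and RPL31, a ribosomal protein, at -0.11 ± 0.135 and 0.26 ± 0.135. PTRH2, a mitochondrial peptidyl-tRNA hydrolase, was at -0.29 ± 0.177 and 0.51 ± 0.176, with 30.6 and 31.2 CPM in siNT, 24.1 and 26.5 in siHOXA-AS3, and 43.0 and 44.7 in siHOXB-AS3. TMEM138 was at -0.15 ± 0.166 and 0.36 ± 0.166, and MRPL18, a mitochondrial ribosomal protein, at -0.25 ± 0.188 and 0.42 ± 0.187. With so many genes searched over so few libraries, some high values of r arise by selection.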
